A study of Mus musculus with 2 samples.

Results

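The 7 ligands of the CXC chemokine family described here, *Cxcl1*, *Cxcl2*, *Cxcl10*, *Cxcl13*, *Cxcl14*, *Cxcl16* and *Pf4*, were chosen by name as members with at least 1 UMI (unique molecular identifier, which counts captured transcripts) in each library of macrophages from epididymal adipose tissue, and are 7 of 31053 genes in the count matrices. *Cxcl3*, *Cxcl9*, *Cxcl12* and *Ppbp*, which were also found in both libraries, are given as other ligands. Adipose tissue macrophages (ATMs) came from male C57/BL6 mice that stayed on the control chow diet (CD) or were given a high fat diet overnight (HFD), with 3 mice pooled into 1 library per diet. They were released by enzymatic digestion, sorted as CD45+Lin-Ly6Clow/-F4/80+ cells, where Lin stands for lineage markers, and sequenced by the droplet-based 10X 3' V2 method; a CD11b+F4/80+ gate is also named in the methods. Each diet was thus a single library, so no test between diets was possible, and all intervals below are 95% intervals that cover counting error only.

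CXC chemokines are small secreted proteins that guide leukocytes through G protein-coupled receptors. *Cxcl1* and *Cxcl2* carry the ELR motif, act on CXCR2 and draw neutrophils, and macrophages make them when NF-kB is active. *Cxcl10* is induced by interferons and acts on CXCR3 of T and NK cells, *Cxcl13* guides B cells through CXCR5, and *Cxcl16* is made as a transmembrane protein that binds CXCR6 and can be cut from the surface by ADAM10 and ADAM17. *Pf4*, platelet factor 4, is known from platelet granules and is also transcribed by tissue macrophages, and *Cxcl14* is an epithelial and stromal chemokine.

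The promoters of *Cxcl1*, *Cxcl2* and *Cxcl10* are shown since these ligands are the inducible ones and since *Cxcl1* and *Cxcl2* proved to be found in the same cells. Each line gives the 250 bases before the RefSeq start of the gene in GRCm38.p6, 5′ to 3′ on the strand of the gene, and capitals mark matches to the NF-kB, AP-1 or interferon (ISRE) motifs.
Cxcl1 (chr5:90890995-90891244, + strand): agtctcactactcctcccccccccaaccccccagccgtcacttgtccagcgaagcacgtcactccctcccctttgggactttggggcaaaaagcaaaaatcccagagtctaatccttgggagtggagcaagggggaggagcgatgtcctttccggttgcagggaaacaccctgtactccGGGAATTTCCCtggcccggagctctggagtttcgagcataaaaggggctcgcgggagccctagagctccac
Cxcl2 (chr5:90903649-90903898, + strand): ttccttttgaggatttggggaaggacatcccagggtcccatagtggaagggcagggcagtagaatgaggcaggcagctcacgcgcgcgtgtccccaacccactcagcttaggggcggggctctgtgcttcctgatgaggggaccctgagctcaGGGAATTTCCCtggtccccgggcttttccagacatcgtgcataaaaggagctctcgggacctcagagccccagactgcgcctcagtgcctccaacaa
Cxcl10 (chr5:92348890-92349139, - strand): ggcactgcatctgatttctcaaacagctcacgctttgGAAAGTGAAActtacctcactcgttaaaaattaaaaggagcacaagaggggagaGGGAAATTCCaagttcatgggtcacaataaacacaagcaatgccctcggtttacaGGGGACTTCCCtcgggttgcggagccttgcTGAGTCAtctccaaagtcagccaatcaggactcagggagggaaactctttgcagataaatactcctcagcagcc

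*Cxcl1* and *Cxcl2* held the same run of 11 letters, GGGAATTTCCC, which started 71 bases before the start site in *Cxcl1* and 97 bases before it in *Cxcl2*; it holds a match to the NF-kB motif on each strand, and these matches overlap. *Cxcl10* held an ISRE match at -213, a separate NF-kB match at -159, overlapping NF-kB matches at -104 and -103, and an AP-1 match at -74. The motifs searched were the 10-letter kappa B consensus for NF-kB, TGANTCA for AP-1 and, for ISRE, GAAA and GAAA with any 2 bases between them, each on both strands of windows of 300 bases, in which they were found in 8.46%, 7.81% and 3.44% of 32851 RefSeq promoters. The windows of *Pf4* and *Cxcl13* held no match, and that of *Cxcl14* held 1 ISRE match. Promoter windows were matched for 6 of the 7 genes, all but *Cxcl16*. A match describes letters in the window, not binding of a factor.

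Of the 7 genes, 5 lie on chromosome 5. In GRCm38 coordinates, *Pf4* (90772435 to 90773383), *Cxcl1* (90891241 to 90893115) and *Cxcl2* (90903871 to 90905938) are on the + strand beside *Ppbp* and *Cxcl3*, and *Cxcl2* begins 10755 bases after the end of *Cxcl1*. *Cxcl10* (92346638 to 92348889, - strand) and *Cxcl13* (95956951 to 95961068, + strand) follow on the same chromosome. *Cxcl14* is on chromosome 13 (56288643 to 56296551, - strand) and *Cxcl16* on chromosome 11 (70453983 to 70459984, - strand). *Cxcl10* and *Cxcl16* overlap *Art3* and *Zmynd15*, which lie on the other strand. *Cxcl1*, *Cxcl2* and *Cxcl3* are related copies, and how reads that fit several of them were assigned was not tested.

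The kept cells had 200 to 3500 genes and at most 10% mitochondrial UMIs. They were 2364 of 4459 CD barcodes with a median of 4490.5 UMIs and 2021 of 3163 HFD barcodes with a median of 2792 UMIs, or 12284010 and 8086475 UMIs in all. HFD cells were thus shallower, so levels are given in CPM, the UMIs of a gene scaled to all UMIs of the cell group, and shares of positive cells after each cell was thinned to 800 UMIs. Of 9 general macrophage markers none was at 0, 2361 CD and 2016 HFD cells had at least 2 UMIs of them, and their summed level was 24748 and 25573 CPM. Within the list, *Lyz2* went from 12565 to 18096 CPM (0.53) while the other 8 had ratios below 0, among them *C1qa* (-0.89), *C1qc* (-0.82) and *Csf1r* (-0.79), with a median of -0.40 over the 9. 7 kept barcodes occurred in both libraries. Across all genes with at least 50 UMIs, the median log2 ratio of HFD over CD was -0.017.

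Cell groups were set by UMIs of marker genes and are not clusters. No cluster was removed, while the paper's methods exclude clusters annotated as endothelia or peritoneal macrophages and clusters with few genes. A UMI of *Lyve1*, a marker of resident macrophages, was found in 1172 CD cells (49.6%) and 415 HFD cells (20.5%). Cells with *Folr2* but no *Lyve1* (Folr2+Lyve1-) numbered 872 and 581. Cells with the monocyte chemokine receptor *Ccr2* (Ccr2+) numbered 1326 and 1131, those with at least 10 UMIs of the lysozyme gene *Lyz1* (Lyz1-high) numbered 555 and 672, and those with the monocyte gene *Plac8* (Plac8+) numbered 42 and 73. These groups overlap: 497 CD and 154 HFD cells were both Lyve1+ and Ccr2+, and 531 and 603 were both Ccr2+ and Lyz1-high. They also depend on depth, with median UMIs per cell from 4052.5 in Lyve1+ to 8205 in Lyz1-high cells of the CD library and from 2299 to 6609 in the HFD library.

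Between the diets, the ELR ligands *Cxcl1* and *Cxcl2* were higher in the HFD library, *Pf4* was lower, and *Cxcl10* and *Cxcl16* differed by less than the counting error. *Cxcl13* was the 1 member of the 6 with at least 50 UMIs whose ratio reached 2-fold, and it was higher in HFD; this was reached by 1.4% of all 9929 genes with at least 50 UMIs, and 3.49% were at least 2-fold lower, among them 0 of the members. *Cxcl14* had 14 CD and 22 HFD UMIs and was left out of this count. In sums over all kept cells, fewer cells of a type and less RNA per cell cannot be told apart.

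*Cxcl2* reached 1451 CPM in CD (17821 UMIs) and 2270 CPM in HFD cells (18354 UMIs), a log2 ratio of 0.65 (0.62 to 0.68). The HFD level was the higher in each of the 5 cell groups. In Lyve1+ cells, *Cxcl2* went from 1008 to 1846 CPM, a log2 ratio of 0.87 (0.80 to 0.94). In Lyz1-high cells, where the CD level was the highest of the groups, it went from 1981 to 2479 CPM, a log2 ratio of 0.32 (0.28 to 0.36). The ratio was thus larger in the group that started lower. The Folr2+Lyve1- (1775 and 2365 CPM), Ccr2+ (1681 and 2311 CPM) and Plac8+ groups (842 and 1354 CPM) had log2 ratios of 0.41, 0.46 and 0.68. The order of the groups was the same in both libraries, Lyz1-high, Folr2+Lyve1-, Ccr2+, Lyve1+ and Plac8+, and the intervals of neighbours did not overlap but for Folr2+Lyve1- and Ccr2+ cells of the HFD library. With the cells that met no other group's rule, 8 CD and 55 HFD cells in the case of Lyz1-high, the ratio of *Cxcl2* in that group turned to -1.20.

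*Cxcl1*, the neighbour of *Cxcl2* with the same ELR motif, reached 120 CPM in CD (1479 UMIs in 405 cells) and 175 CPM in HFD (1415 UMIs in 354 cells), a log2 ratio of 0.54 (0.43 to 0.65). In Lyve1+ cells it went from 81.0 to 142 CPM (0.81, 0.55 to 1.05), or by 0.53 without the 5 cells with most UMIs of it in each library, and its ratio was 0.60 in Folr2+Lyve1-, 0.27 in Ccr2+ and 0.17 (0.025 to 0.31) in Lyz1-high cells. Over other settings of the filters, scaling and groups, the ratio ranged from 0.094 to 0.80 in Ccr2+ cells. In Lyz1-high cells it ranged from 0.039, without cells of other types, to 0.72. In Plac8+ cells, 18 CD and 28 HFD UMIs gave 0.10 (-0.80 to 1.05). As with *Cxcl2*, the CD level was lower in Lyve1+ than in Lyz1-high cells, where it was 162 CPM. In the HFD library the intervals of Folr2+Lyve1-, Lyz1-high, Ccr2+ and Lyve1+ cells each overlapped that of the next in order, from 211 down to 142 CPM.

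*Pf4* went from 3409 CPM in CD (41872 UMIs) to 2045 CPM in HFD (16537 UMIs), a log2 ratio of -0.74 (-0.76 to -0.71). Within groups the ratio did not keep this size or, in Folr2+Lyve1- cells, this direction. *Pf4* in Lyve1+ cells was at 5042 and 4386 CPM (-0.20, -0.24 to -0.16), and in Folr2+Lyve1- cells at 2722 and 2860 CPM (0.071, 0.028 to 0.11). In Ccr2+ cells it was at 2489 and 1299 CPM (-0.94), in Lyz1-high cells at 1146 and 719 CPM (-0.67) and in Plac8+ cells at 1428 and 1278 CPM (-0.16, -0.35 to 0.034). The Ccr2+ and Lyz1-high groups also differed in other genes between the libraries, as the summed level of 12 resident macrophage markers went from 7102 to 3125 CPM in Ccr2+ cells and from 3568 to 1858 CPM in Lyz1-high cells; it was 7097 and 6342 CPM in Folr2+Lyve1- cells, and its part in the *Pf4* ratios was not tested. With cells that were Ccr2+ by no other group's rule (98 CD and 235 HFD cells), the *Pf4* ratio was 0.65, the opposite direction. By the same rule it was 1.62 in Lyz1-high cells (8 CD and 55 HFD cells), 0.11 in Lyve1+ cells and -0.19 in Folr2+Lyve1- cells, so the direction within each of these 4 groups turned with how the group was set.

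**Figure D1:**
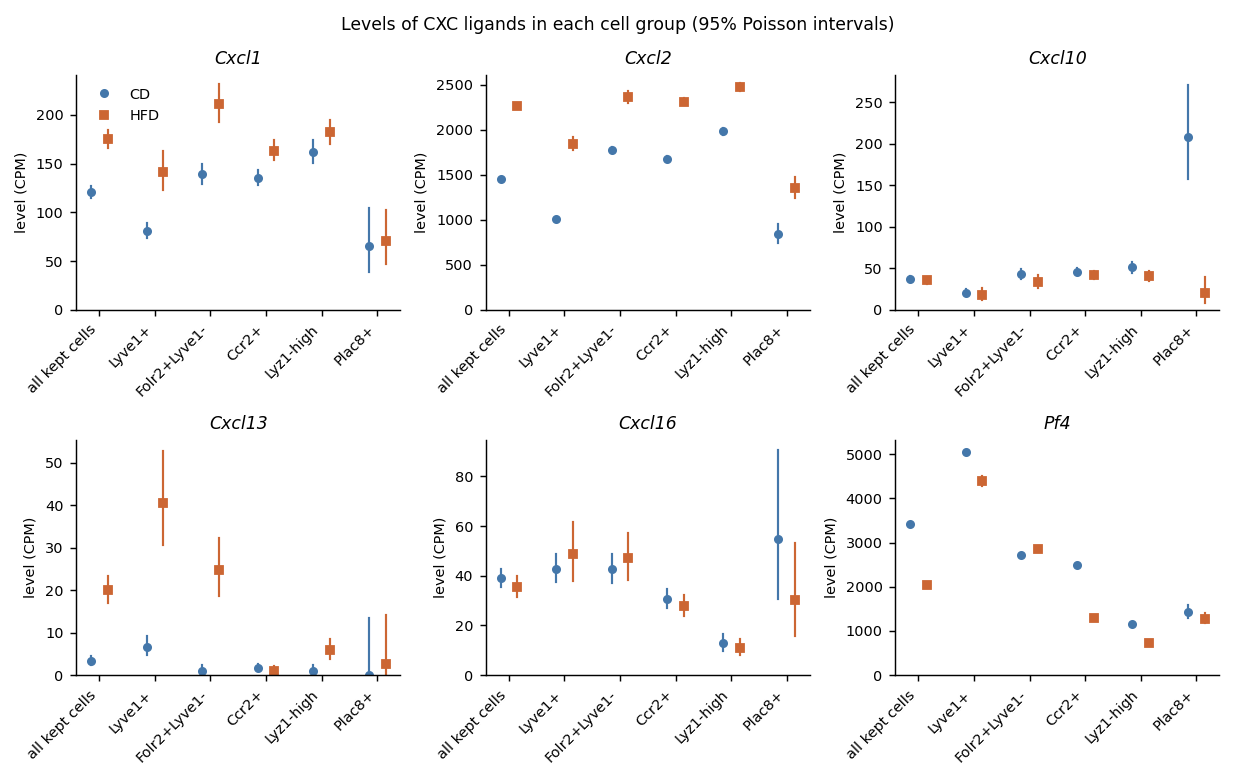
Levels in CPM of 6 of the ligands in all kept cells and in each of the 5 overlapping cell groups, with CD as circles and HFD as squares and vertical lines for exact 95% Poisson intervals. Cxcl2 is higher in HFD in each group, Pf4 runs down from Lyve1+ to Lyz1-high cells in both libraries, and Cxcl10 in Plac8+ cells stands at 209 CPM in CD and 20.2 CPM in HFD.

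The cells were also divided into 5 groups without overlap, by *Lyve1*, then by *Folr2* and *Ccr2*, to see how far the make-up of the libraries went with these ratios. Lyve1+ cells held 43.7% of the UMIs of the CD library and 17.0% of those of the HFD library, while cells with *Ccr2* but neither *Folr2* nor *Lyve1* held 14.5% and 47.2%. These groups also depend on depth, and cells with no UMI of *Lyve1*, *Folr2* or *Ccr2* numbered 59 in CD and 337 in HFD. The part of depth and of marker RNA per cell in this make-up was not tested. Along this division *Pf4* had log2 ratios of -0.20 in Lyve1+ cells, -0.22 in Folr2+Lyve1-Ccr2- cells, 0.076 in Folr2+Lyve1-Ccr2+ cells, 0.17 in Folr2-Lyve1-Ccr2+ cells and 0.53 in cells with none of the 3 genes. With the HFD groups weighted to the make-up of the CD library, the *Pf4* level of 3118 CPM was closer to the 3409 CPM of CD, and its log2 ratio was -0.13 in place of -0.74. The ratio of *Cxcl2* in the same order was 0.87, 0.54, 0.42, 0.38 and -0.067 (-0.21 to 0.082), and at the make-up of the CD library it was 0.57. *Cxcl1* had ratios of 0.81, 0.86, 0.46, -0.18 (-0.38 to 0.021) and -0.065 (-0.58 to 0.48), and 0.50 at the make-up of the CD library. The higher level of *Cxcl1* was thus seen in groups with *Lyve1* or *Folr2*, and in the other groups the interval included 0.

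**Figure D2:**
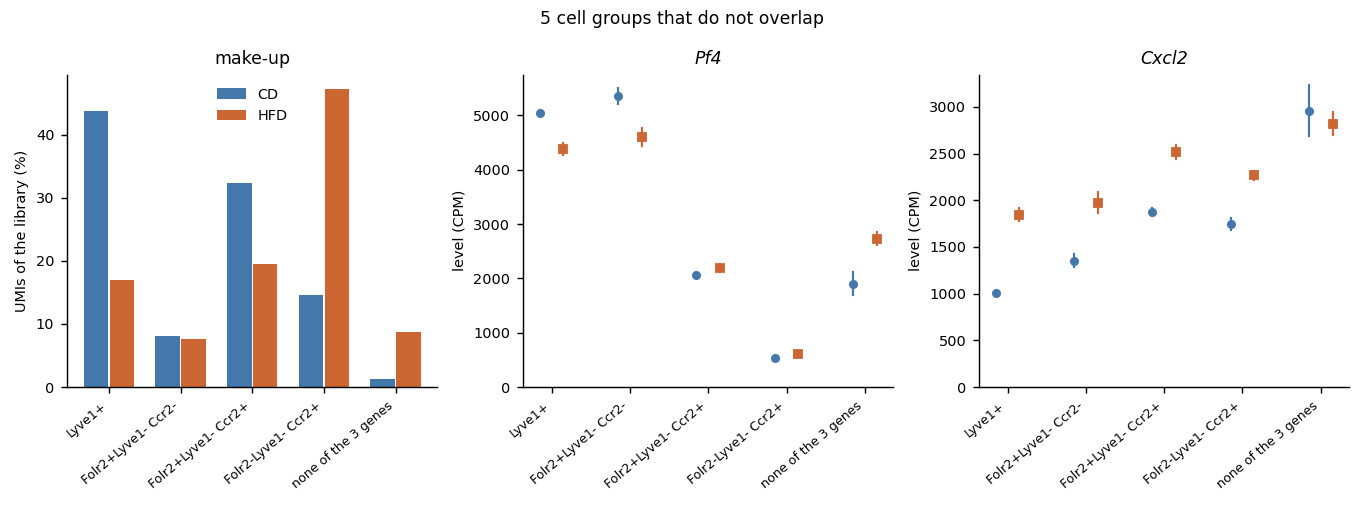
Share of each library's UMIs in 5 groups without overlap (left, bars from 0, CD and HFD), and the level of Pf4 and Cxcl2 in CPM in each of them with exact 95% Poisson intervals (middle and right). Lyve1+ cells hold 43.7% of CD and 17.0% of HFD UMIs, and Pf4 is highest in Lyve1+ and Folr2+Lyve1-Ccr2- cells of both libraries.

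*Cxcl10* reached 36.9 CPM in CD (453 UMIs) and 35.5 CPM in HFD (287 UMIs), a log2 ratio of -0.055 (-0.27 to 0.16). In Lyz1-high cells it was at 51.0 and 40.5 CPM (-0.33, -0.62 to -0.053). In the Lyve1+, Folr2+Lyve1- and Ccr2+ groups the intervals included 0. Plac8+ cells stood apart: 57 UMIs in 8 of 42 CD cells gave 209 CPM and 8 UMIs in 4 of 73 HFD cells gave 20.2 CPM, a log2 ratio of -3.37 (-4.65 to -2.29). A pair of CD cells with 20 and 19 UMIs held most of the 57, and the cell with 20 UMIs had 3 UMIs of *Plac8* and 356 of the macrophage markers. The summed level of 16 interferon-stimulated genes in Plac8+ cells was 1230 CPM in CD and 762 CPM in HFD, and that of 8 dendritic cell markers was 58.6 and 435 CPM. Of 3 members with at least 50 UMIs in Plac8+ cells, *Cxcl10* alone was past 2-fold, against 2.4% of 1708 genes lower and 2.4% higher.

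*Cxcl16* was at 38.9 CPM (478 UMIs) and 35.5 CPM (287 UMIs), a log2 ratio of -0.13 (-0.35 to 0.081). Like *Pf4*, and unlike *Cxcl1* and *Cxcl2*, it was lowest in Lyz1-high cells. Its level was 42.8 and 48.7 CPM in Lyve1+, 42.7 and 47.1 CPM in Folr2+Lyve1-, 30.7 and 27.8 CPM in Ccr2+ and 12.8 and 10.9 CPM in Lyz1-high cells, CD before HFD, and 15 and 12 UMIs in Plac8+ cells gave 54.9 and 30.4 CPM. The highest level among the groups without overlap was in Folr2+Lyve1-Ccr2- cells, 87.2 and 80.0 CPM. The sheddases *Adam10* (88.7 and 82.2 CPM) and *Adam17* (43.7 and 46.5 CPM) had ratios of -0.11 (-0.25 to 0.032) and 0.089 (-0.10 to 0.28).

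*Cxcl13* reached 3.34 CPM in CD and 20.03 CPM in HFD, a log2 ratio of 2.59 (2.08 to 3.12), but these levels came from 41 UMIs in 12 cells and 162 UMIs in 16 cells. The HFD cells with most UMIs of it had 54, 51, 22, 17 and 7, and the CD cells 12, 11, 7, 2 and 2. The remaining positive cells had 1 UMI each. Peritoneal macrophages, which lie next to this fat pad, have markers of their own, and a list of 8 of them (*Gata6*, *Icam2*, *Prg4*, *Alox15*, *Saa3*, *Selp*, *Lbp* and *Garnl3*) went from 577 UMIs in CD to 1586 in HFD, or 47.0 to 196 CPM. The 5 HFD cells with most *Cxcl13* held 102, 54, 111, 127 and 114 UMIs of this list. The CD cells with 12, 11 and 7 *Cxcl13* UMIs held 4, 242 and 0, and the first of them also had 35 *Lyve1* and 17 *Folr2* UMIs. The HFD cell with 54 also had 8 *Lyve1*, 8 *Folr2* and 4 *Timd4* UMIs, and neither it nor the cell with 51 had *Gata6*. The HFD cells with 51, 22, 17 and 7 had 8, 0, 5 and 2 *Timd4* UMIs, and the CD cells with 12, 11 and 7 had 13, 3 and 0. *Saa3* alone made up 230 of the list's UMIs in CD and 961 in HFD. Cells with a *Gata6* UMI, 6 in CD and 4 in HFD, held 26.8% and 18.5% of *Cxcl13* UMIs. Those with a *Timd4* UMI, 368 in CD and 72 in HFD, held 28 (68.3%) and 132 (81.5%) of them. The paper reports the protein of *Timd4* on resident ATMs and on peritoneal macrophages. Whether the cells with many UMIs of the list were peritoneal macrophages was not tested. Cells with at least 2 UMIs of the list, 18 in CD and 27 in HFD, held 28 of the 41 CD UMIs (68.3%) and 154 of the 162 HFD UMIs (95.1%) of *Cxcl13*. Over all other kept cells *Cxcl13* was at 1.07 CPM in CD (13 UMIs) and 1.01 CPM in HFD (8 UMIs), a log2 ratio of -0.080. Of the cells with at least 2 UMIs of the list, 5 of 18 in CD and 8 of 27 in HFD had *Cxcl13*.

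**Figure D3:**
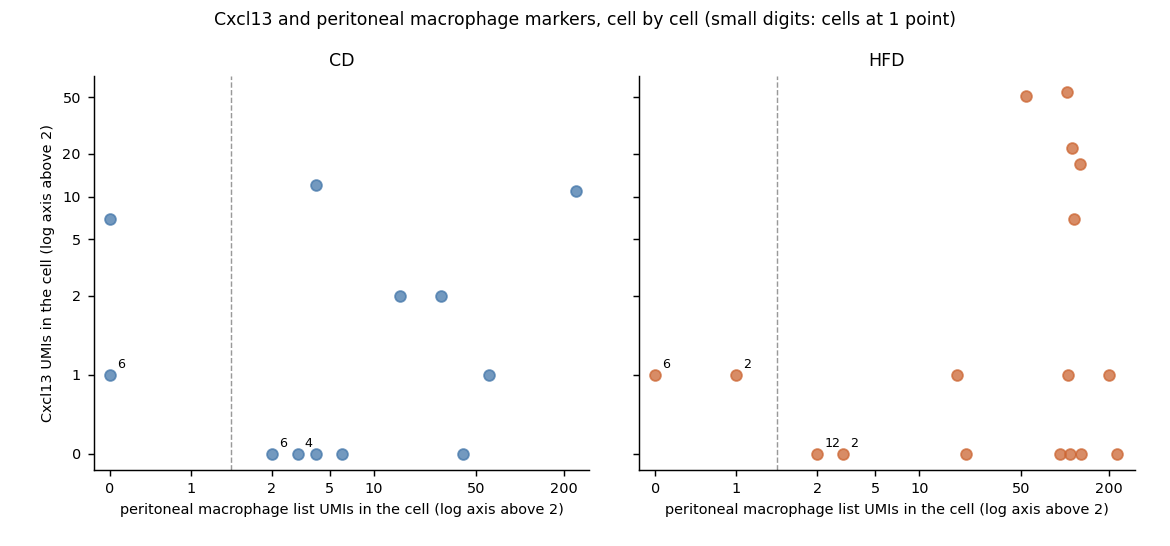
Each point is a kept cell with a Cxcl13 UMI or with at least 2 UMIs of the peritoneal macrophage list, with the list's UMIs on the x axis and Cxcl13 UMIs on the y axis (both axes linear to 2 and logarithmic above, small digits where cells share a point); the dashed line divides 1 from 2 UMIs of the list. The 5 HFD cells with 7 to 54 Cxcl13 UMIs all lie to the right of the line, at 54 to 127 UMIs of the list.

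By group, *Cxcl13* was at 36 CD and 56 HFD UMIs in Lyve1+ cells (2.60) and 5 and 54 UMIs in Folr2+Lyve1- cells (4.62), where it was the 1 of 6 members past 2-fold, and higher in HFD. A single HFD cell held 54 of the 56 UMIs in Lyve1+ cells, and another held 51 of the 54 in Folr2+Lyve1- cells. That bound was passed upward by 1.44% of 7969 genes in Lyve1+ cells and 1.05% of 7929 genes in Folr2+Lyve1- cells, and downward by 2.5% and 1.92%. Without the cells with at least 2 UMIs of the peritoneal list, the *Cxcl13* ratio in Lyve1+ cells was -0.47. It rested on no more than the 13 CD and 8 HFD UMIs of all other kept cells, too few to give a direction. In Folr2+Lyve1- cells the ratio stayed above 0, at 1.21 without the cells of any other type's list, but this rested on 4 UMIs in all. In Ccr2+ and Lyz1-high cells, 0 of 5 members passed 2-fold in either direction, against 1.14% higher and 2.92% lower of 9198 genes in Ccr2+ cells and 0.957% higher and 1.6% lower of 8149 genes in Lyz1-high cells. *Cxcl14* was at 1.14 and 2.72 CPM, a log2 ratio of 1.26 (0.22 to 2.33), with at most 4 UMIs in a cell. At the make-up of the CD library the *Cxcl14* ratio turned to -0.46. Of its 22 HFD UMIs, 17 were in Lyz1-high cells, and 3 of its 14 CD UMIs were.

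**Figure D4:**
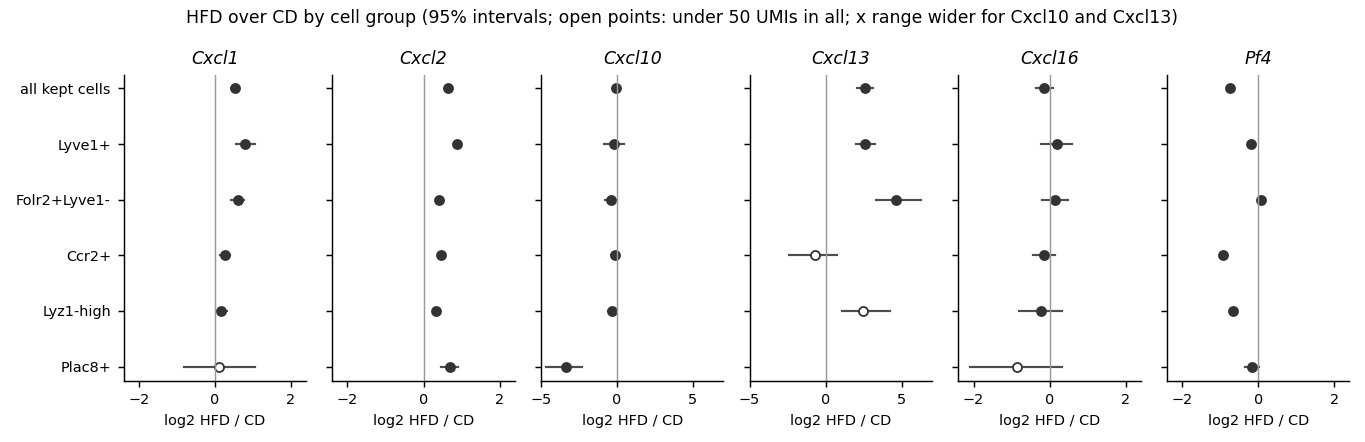
Log2 ratio of HFD over CD for 6 ligands (panels) in all kept cells and 5 overlapping groups (rows), with exact 95% intervals, a line at 0 and a wider x range for Cxcl10 and Cxcl13; open points had under 50 UMIs in both libraries together. Cxcl2 lies right of 0 in each group, and Pf4 lies left of 0 in all but Folr2+Lyve1- cells, where it is 0.071.

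Within a library, the ligands fell on 2 sides when Lyve1+ cells were compared with Lyz1-high cells, without the cells that were both (1049 and 432 CD cells, 361 and 618 HFD cells). *Pf4* reached 5786 CPM in Lyve1+ and 869 CPM in Lyz1-high CD cells, 6.66-fold higher in the former, and 5725 and 610 CPM in those of HFD, 9.38-fold higher. The intervals of the Lyve1+ level overlapped between the libraries (5714 to 5859 and 5571 to 5881 CPM). *Cxcl16* was higher in Lyve1+ cells by 4.48-fold in CD (48.7 and 10.9 CPM) and 6.37-fold in HFD (63.1 and 9.91 CPM). *Cxcl10* was on the other side, with 15.9 and 54.3 CPM in CD and 10.9 and 41.3 CPM in HFD, log2 ratios of -1.78 (-2.20 to -1.37) and -1.93 (-3.01 to -1.01). *Cxcl2* was at 832 and 2061 CPM in CD and 1748 and 2527 CPM in HFD, so that its log2 ratio was -1.31 in CD and -0.53 in HFD. *Cxcl1* moved likewise, from -1.37 (-1.58 to -1.16) to -0.40 (-0.68 to -0.13). *Cxcl13* had 55 and 26 HFD UMIs, a log2 ratio of 3.25, and 33 and 2 CD UMIs; when the groups were set on thinned cells, its HFD ratio turned to -1.35. In CD, 2 of the 5 members with at least 50 UMIs were at least 2-fold higher in Lyve1+ cells and 3 were at least 2-fold lower, while 14.2% and 5.58% of 8173 genes were. In HFD, 3 of 6 were higher and 1 was lower, while 12.3% and 5.65% of 6889 genes were. Of the 3, *Cxcl13* rested on a single cell, which held 54 of its 55 UMIs in these Lyve1+ cells.

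Shares of positive cells were compared at an equal depth of 800 UMIs. *Pf4* was seen in 76.6% of cells in CD (74.8 to 78.3%) and 60.7% in HFD (58.4 to 62.9%), and without thinning in 95.3% and 84.2%. *Cxcl2* was seen in 40.2% (38.2 to 42.2%) and 57.8% (55.6 to 60.1%), against 63.5% and 76.7% without thinning. *Cxcl1* was seen in 5.66% (4.75 to 6.67%) and 8.59% (7.36 to 9.95%), where the shares without thinning, 17.1% and 17.5%, were closer to each other. Thinning left out 30 CD and 147 HFD cells with under 800 UMIs. In Lyve1+ cells *Cxcl2* was seen in 32.0% of CD and 50.7% of HFD cells, while in Lyz1-high cells it was seen in 64.5% and 65.5%, so there the higher level was not matched by a larger share of cells. *Cxcl10* was seen in 1.89% and 1.87% of cells. *Cxcl16* was seen in 3.21% (2.54 to 4.01%) and 4.59% (3.69 to 5.64%) at 800 UMIs, in 6.16% and 5.90% at 1500 UMIs and in 15.1% and 11.2% without thinning, so its shares had no order that held across depths. Cells with *Flt3* but neither *Lyve1* nor *Folr2*, dendritic-like cells that should lack *Pf4*, numbered 4 in CD and 8 in HFD, and 3 and 7 of them had a *Pf4* UMI at median depths of 7969 and 4944.5 UMIs, and 0 and 1 did after thinning; this is too few cells to set a background.

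The ligands differed in how many cells held them. In the CD library, 440 cells (18.6%) held the upper 50% of *Pf4* UMIs and 196 cells (8.29%) those of *Cxcl2*, while 67 cells (2.83%) did so for *Cxcl1*, 32 (1.35%) for *Cxcl10* and 118 (4.99%) for *Cxcl16*. *Pf4* came to rest on fewer cells in the HFD library, where 191 cells (9.45%) held that share, and *Cxcl2* on about as many, 199 cells (9.85%). *Cxcl1* UMIs reached 31 in a CD cell and 37 in an HFD cell. For *Cxcl13*, 2 cells held at least 50% of UMIs in each library.

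**Figure D5:**
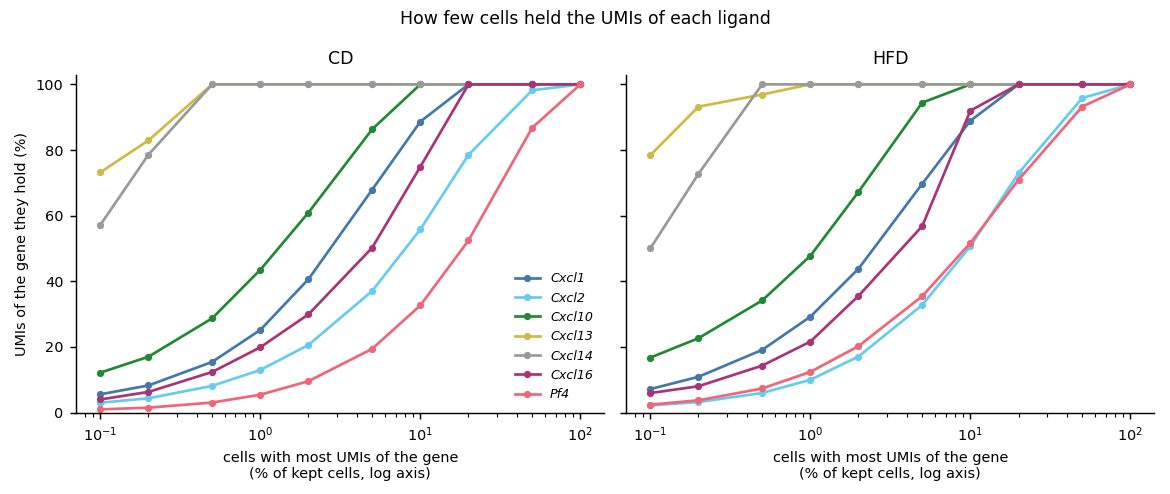
Percent of each ligand's UMIs (y axis) held by the kept cells with most of them (x axis, percent of kept cells on a log axis), in CD (left) and HFD (right). Cxcl13 and Cxcl14 rise at the far left, being held by few cells, and the Pf4 curve moves left from CD to HFD, where 9.45% of cells in place of 18.6% hold 50% of its UMIs.

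*Cxcl1* and *Cxcl2* were found in the same cells more often than *Cxcl2* was found elsewhere. After thinning, *Cxcl2* was present in 75.0% (66.7 to 82.1%) of CD cells with *Cxcl1* and 38.1% (36.1 to 40.2%) of those without it, and in 82.0% (75.2 to 87.6%) and 55.6% (53.2 to 57.9%) in HFD. *Pf4* was present in 56.8% (41.0 to 71.7%) of CD cells with *Cxcl10* and 77.0% of those without it. In HFD these shares were 42.9% (26.3 to 60.6%) and 61.0% (58.7 to 63.2%), with intervals that overlapped. *Pf4* was present in 86.7% (76.8 to 93.4%) of CD cells with *Cxcl16* and 76.3% (74.5 to 78.0%) of those without it, with intervals that overlapped. In HFD it was present in 80.2% (70.2 to 88.0%) and 59.7% (57.4 to 62.0%).

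Genes were ranked by the ratio of their level in cells with a ligand over cells without it, in both libraries. Only genes with at least 30 UMIs in the positive cells of each library entered, with no minimum in the other cells. Genes low in positive cells could thus not enter, and the ratios only describe these cells. Positive cells were also deeper (a median of 6199 against 4131 UMIs for *Cxcl1* in CD, and 4836.5 against 2505 in HFD). The 5 highest genes are named for each ligand. For *Cxcl1* these were *Slpi*, a secreted protease inhibitor (log2 ratios of 2.54 in CD and 2.32 in HFD), the peritoneal markers *Prg4* (3.23 and 1.91) and *Alox15* (1.89 and 2.91), *Cd5l* (1.61 and 2.52) and the proliferation gene *Pclaf* (1.90 and 1.54). The peritoneal list was at 134 CPM in CD cells with *Cxcl1* and 21.0 CPM in those without it, and at 349.9 and 149 CPM in HFD. A single CD cell held 242 of the 378 list UMIs in CD cells with *Cxcl1*, so the CD level there rested largely on that cell. The list was also higher in cells with *Cxcl2* than in those without it, 54.4 and 26.9 CPM in CD and 227 and 24.4 CPM in HFD. For *Cxcl16* in CD these levels were 138 and 29.5 CPM. Cells with *Cxcl10* went the other way, at 18.7 and 50.4 CPM in CD and 29.0 and 214 CPM in HFD. Cells with at least 2 UMIs of that list held 2.16% of *Cxcl1* UMIs in CD and 7.63% in HFD, and without them *Cxcl1* was at 119 and 166 CPM. For *Cxcl2* they were the tissue factor gene *F3*, with 64 CD and 37 HFD UMIs in positive cells and 0 in the others, *Slpi* (3.64 and 3.34), the lectin-like scavenger receptor *Olr1* (2.56 and 2.45), *Serpinb2* (2.44 in CD, and 82 against 0 UMIs in HFD) and *Cxcl1* itself (2.27 and 2.55).

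For *Cxcl10*, the genes were the interferon-induced *Rsad2* (1.38 in CD and 2.71 in HFD) and *Isg15* (1.53 and 1.15), and *Ms4a4c* (2.03 and 1.11), the cyclin gene *Ccnd2* (1.31 and 1.04) and *Dna2* (1.01 and 1.22). The list of interferon-stimulated genes was at 543 CPM in CD cells with *Cxcl10* and 354 CPM in those without it, and at 490.0 and 343 CPM in HFD. For *Cxcl16*, they were genes of migrating dendritic cells, *Ccl22* (5.03 and 5.85), *Ccr7* (5.88 and 5.02) and *Ccl17* (2.43 and 4.98), beside *Ly6c2* (3.44 and 2.66) and *Saa3* (3.34 and 1.69). *Ccr7* had 68 CD and 33 HFD UMIs in all *Cxcl16* positive cells, so few cells carried this ratio. *Pf4* was present in 2253 of 2364 CD and 1702 of 2021 HFD cells. The ranking set no minimum of UMIs in the cells without it, and the intervals of its top genes were wide. Its genes were *Gprc5c* (3.77, 1.28 to 9.08, in CD and 4.40, 1.89 to 9.71, in HFD) and the monocyte chemoattractant gene *Ccl12* (3.50, 2.14 to 5.38, and 4.14, 2.77 to 6.02). The others were *Chp2*, *Chst7* and *Epor*, of which the cells without *Pf4* had 0 UMIs in at least 1 library. Resident macrophage markers were at 10565 CPM in CD cells with *Pf4* and 1972 CPM in those without it, and at 5243 and 1731 CPM in HFD.

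Across the 5 groups of both libraries, 10 points that share libraries and cells, the levels of *Cxcl1* and *Cxcl2* had Pearson's r of 0.94 and those of *Cxcl16* and *Pf4* 0.73. Of 8101 genes, those nearest to *Pf4* were *Clec10a*, *Dab2* and *Maf* (r of 0.99 each), and those nearest to *Cxcl16* were *C5ar2* (0.97), *Rufy1* and *P2ry6* (0.96 each). The nearest were *Pafah1b1* (0.98), *Mrpl24* and *Acsl4* for *Cxcl1*, *Tirap* (0.97), *Bzw2* and *Slk* for *Cxcl2*, and *Mtfmt*, *Cwc15* and *Abcf1* for *Cxcl10*. *Cxcl13* (*Tspyl2*, *Insr* and *2310035C23Rik*) and *Cxcl14* (*Plpp6*, *Alox15* and *Psmg2*) had few UMIs behind their points.

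Among the other CXC ligands, *Cxcl12*, which holds leukocytes and progenitors through CXCR4, was at 78.1 CPM in CD (959 UMIs) and 33.3 CPM in HFD (269 UMIs), a log2 ratio of -1.23 (-1.43 to -1.03). It was nearer to 0 in Lyve1+ cells, at -0.75, and in Folr2+Lyve1- cells, at -0.29, where the interval included 0. *Cxcl3*, an ELR ligand like *Cxcl1* and *Cxcl2*, had 24 and 43 UMIs (1.44, 0.69 to 2.23), the same direction as these. The platelet chemokine *Ppbp*, next to *Pf4* on the chromosome, had 47 UMIs in 33 CD cells and 154 UMIs in 39 HFD cells (2.32, 1.84 to 2.82), the direction opposite to *Pf4*. Of 7 platelet markers, *Ppbp* included, 4 had UMIs in CD (60 in all) and 2 in HFD (159 in all), and *Gp9*, *Gp1bb* and *Gp5* were at 0 in both libraries. *Cxcl9*, the interferon-induced neighbour of *Cxcl10*, had 27 UMIs in 13 CD cells and 4 UMIs in 2 HFD cells. *Cxcl5*, *Cxcl15* and *Cxcl17* were at 0, and *Cxcl11* was not among the genes of the matrices.

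Of the receptors, *Cxcr4* went from 44.9 CPM (551 UMIs) to 92.6 CPM (749 UMIs), a log2 ratio of 1.05 (0.89 to 1.21), and it was higher in HFD by 1.04 in Lyve1+, 1.21 in Folr2+Lyve1-, 1.11 in Ccr2+ and 1.19 in Lyz1-high cells, while in Plac8+ cells the ratio was 0.44 (-0.19 to 1.11). This receptor thus differed in the direction opposite to its ligand *Cxcl12*. *Cxcr3*, the receptor of *Cxcl10*, had 39 and 8 UMIs (-1.68). *Cxcr2*, the receptor of *Cxcl1* and *Cxcl2*, had 4 and 2 UMIs and the scavenger receptor gene *Ackr3* had 4 and 8, while *Cxcr1*, *Cxcr5*, *Cxcr6* and *Ackr1* were at 0.

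Lists that bear on the inducible ligands were set beside all 9929 genes with at least 50 UMIs. Of those, 1.4% were at least 2-fold higher in HFD and 3.49% were at least 2-fold lower. Of 22 NF-kB pathway and target genes, 1 was at least 2-fold higher in HFD and 0 were lower, with a median log2 ratio of 0.16 beside -0.017 for all genes. The highest were the prostaglandin synthase gene *Ptgs2* (16.6 and 64.4 CPM, 1.96), the cytokine genes *Il1a* (0.88) and *Il6* (102 and 179 CPM, 0.81) and *Ccl3* (0.59), and the lowest were *Ier3* (-0.35), *Rela* (-0.32), *Icam1* (-0.25) and *Nfkbib* (-0.14). In Lyve1+ cells 3 of 21 were at least 2-fold higher, *Ptgs2* (2.08), *Il6* (1.24) and *Ccl3* (1.01), with a median of 0.27. Of all 7969 genes with at least 50 UMIs in Lyve1+ cells, 1.44% were at least 2-fold higher. In Folr2+Lyve1- cells the NF-kB median was 0.036, beside 0.032 for all genes of that group. It was 0.091 in Ccr2+, 0.014 in Lyz1-high and 0.079 in Plac8+ cells. Immediate early genes, which enzymatic digestion is known to induce, had 0 of 14 past 2-fold and a median near 0, with *Nr4a1* (0.33), *Jund* (0.30), *Btg2* (0.21) and *Dusp1* (0.19) highest and *Egr1* (-0.32), *Atf3* (-0.25), *Egr2* (-0.17) and *Jun* (-0.15) lowest. The immediate early median by group was 0.10 in Lyve1+, 0.17 in Folr2+Lyve1-, 0.00074 in Ccr2+, 0.10 in Lyz1-high and 0.27 in Plac8+ cells. The part of digestion in these ratios or in those of the ligands was not tested. Of 16 interferon-stimulated genes, 0 passed 2-fold over all kept cells and the median was -0.037, from *Ifit3* (-0.56), *Gbp2* (-0.53), *Oasl2* (-0.45) and *Irf1* (-0.34) to *Usp18* (0.93), *Ifit1* (0.93), *Igtp* (0.47) and *Stat2* (0.38). In Folr2+Lyve1- cells 3 of 13 were at least 2-fold higher, with a median of 0.43, against 1.05% of 7929 genes. By group, 0 of 14 were higher in Lyve1+ (median 0.10), 1 of 15 in Ccr2+ (0.14) and 1 of 13 in Lyz1-high cells (-0.32).

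Markers of cell types were set beside the same shares, 1.4% of all genes at least 2-fold higher in HFD and 3.49% lower. Of 12 resident macrophage genes, 7 were at least 2-fold lower in HFD, with a median of -1.21, led by *Cbr2* (-2.75), *Folr2* (-1.98), *Timd4* (-1.90) and *Lyve1* (-1.63), and the highest was *Adgre1* at -0.19. Of 9 monocyte genes with at least 50 UMIs, 3 were at least 2-fold higher, *Chil3* (2.42), *Plac8* (1.81) and *Ear2* (1.04). *Lyz1* was at 0.89, *Hp* at 0.77, *Fn1* at 0.41, *Ccr2* at 0.12 and *Ly6c2* at -0.33, and *S100a4* was lower in HFD (995 and 511 CPM, -0.96). Within Lyve1+ cells, resident markers went from 15961 to 10057 CPM and monocyte markers from 3740 to 5789 CPM beside the higher *Cxcl1* and *Cxcl2*, and the part of this in those ratios was not tested. Of the 5 peritoneal genes with at least 50 UMIs, 4 were at least 2-fold higher, led by *Saa3* (2.67) and *Alox15* (2.46). Fibroblast markers had 954 CD UMIs, of which 1 Plac8+ cell held 567, and 40 HFD UMIs; the 14 CD cells with at least 2 of them held 0.744% of *Cxcl1*, 0.662% of *Cxcl10* and 2.50% of *Cxcl12* UMIs.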

How the data were processed

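Epididymal ATMs were profiled by droplet-based scRNA-seq in 1 CD and 1 HFD library, each of 3 pooled mice. Raw UMI counts as the authors deposited them came from Cell Ranger 3.0.2, with the mm10 genome and gene models of Ensembl release 93, and were not normalized. They summed to 15003119 UMIs for 4459 CD barcodes and 9164686 for 3163 HFD barcodes. Barcodes with 200 to 3500 genes and at most 10% UMIs of mt- genes were kept, and doublets were kept.

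UMIs were summed over cells as CPM with exact Poisson intervals. Log2 ratios had exact conditional binomial intervals and shares exact Clopper-Pearson intervals, all at 95%. Cells are not replicates, and no p-value was computed. Genes with at least 50 UMIs over the compared groups entered counts at 2-fold. Shares used cells thinned to 800 UMIs. For members with at least 20 positive cells in each library, the 5 genes with the largest ratio of positive over negative cells, by the lower of the libraries' ratios, were named, as were the 3 genes of nearest pattern and, of each list, the 4 highest and 4 lowest. The ranking of positive over negative cells took genes with at least 30 UMIs in the positive cells of each library, with no minimum in the negative cells. Members and lists were chosen with earlier results of these data known. Positions are from GENCODE and promoters from RefSeq GRCm38.p6. Analyses used Python 3.11.15, numpy 2.4.6, scipy 1.17.1, pandas 2.3.3, scanpy 1.11.5 (Scrublet) and matplotlib 3.10.9, and the interval code was tested on simulated data. Alternatives changed the cell filters, doublets, scaling, the weight and make-up of cells, other cell types, the top cells and the gates.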

Additional observations from a re-analysis of the deposited data

Results flagged for a closer look

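The log2 ratio of *Pf4* pointed in opposite directions between groups of cells, at 0.071 in Folr2+Lyve1- cells and at -0.20 in Lyve1+, -0.94 in Ccr2+ and -0.67 in Lyz1-high cells, with intervals on opposite sides of 0. With cells that met 1 group's rule alone, these ratios were -0.19, 0.11, 0.65 and 1.62 in the same order, and the sign of the Folr2+Lyve1- ratio was kept in 10 of 14 alternatives. The difference between the groups was not tested, since each diet had 1 library. Barcodes over the 10% mitochondrial limit, 2043 in CD and 1120 in HFD, were in none of the comparisons and also held the ELR ligands. In the 2043 and 1120 barcodes *Cxcl1* was at 97.1 CPM in CD and 186 CPM in HFD, a log2 ratio of 0.94 (0.65 to 1.23), and *Cxcl2* was at 1139 and 2192 CPM, a log2 ratio of 0.94 (0.86 to 1.03). Only ratios with a lower bound above 0 were flagged among left-out barcodes. In those with over 3500 genes, 23 in CD and 6 in HFD, *Cxcl1* went the other way, at -1.22 (-2.49 to -0.17). *Cxcl2* was at 0.055 (-0.19 to 0.29) and *Pf4* at -2.65 (-3.47 to -1.94) in them. In the barcodes over the mitochondrial limit, *Pf4* was at 2372 CPM in CD and 2103 CPM in HFD, a log2 ratio of -0.17 (-0.25 to -0.10). With 1 library per diet, no check for a library that stood apart from its group was possible.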

How the results depend on the processing

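No paired analysis was possible because each diet had 1 library. The ratios of *Cxcl1* and *Cxcl2* over all kept cells stayed above 0 in 12 of 12 alternatives each (0.33 to 0.80 and 0.52 to 0.84), and that of *Pf4* stayed below 0 in 12 of 12 (-0.88 to -0.13). With up to 20% mitochondrial UMIs, *Cxcl2* was at 0.68 and *Pf4* at -0.71, and with up to 5%, *Cxcl1* was at 0.33, *Cxcl2* at 0.52, *Pf4* at -0.76 and 1 member was 2-fold higher in Plac8+ cells (2.84% of all genes). With at least 1000 genes per cell, *Pf4* was at -0.88. With equal weight for each cell, *Cxcl1* was at 0.80, *Cxcl2* at 0.84, *Cxcl16* at 0.23 and *Pf4* at -0.55, and 3 members were 2-fold higher in Lyve1+ cells (2.59% of all genes). Without cells carrying at least 2 UMIs of any other cell type's list (59 CD and 62 HFD cells), *Pf4* was at -0.81. *Cxcl13* was at -0.27 and, in Lyve1+ cells, at -0.45, on at most 13 CD and 8 HFD UMIs, too few to give a direction. Under this setting 0 members were 2-fold higher in all kept, Lyve1+ and Folr2+Lyve1- cells, beside 1.33%, 1.44% and 1.04% of all genes. Without the 5 cells with most UMIs of each gene, *Cxcl13* was at 1.26 and *Pf4* at -0.77. For this setting 0 members were higher in Lyve1+ and Folr2+Lyve1- cells and 0 were lower in Plac8+ cells, and no share of all genes was computed. With groups set on thinned cells, 2 members were higher in Folr2+Lyve1- (1.59% of all genes) and 0 lower in Plac8+ cells (2.31%). *Cxcl13* then reversed to -1.64 in Lyve1+ cells and, for Lyve1+ over Lyz1-high cells of the HFD library, to -1.35. With cells of 1 group alone, 3 members were higher in Lyve1+ cells (2.08% of all genes) and 1 was higher and 1 lower in Lyz1-high cells (12.3% and 4.56%). In Plac8+ cells 1 was higher and 0 were lower (15.8% and 10%). With a gate of at least 2 UMIs, 0 members were higher in Folr2+Lyve1- cells (1.44% of all genes) and 1 was lower in Ccr2+ cells (2.64%). In Plac8+ cells 1 was higher and 0 were lower (3.2% and 2.94%). In Plac8+ cells *Cxcl10* fell out of the count under the last and the thinned groups because it had 47 and 26 UMIs, under the minimum of 50, while its ratio was -3.50 and -2.48, and it was below 0 in 12 of the 12 alternatives that gave a ratio. Leaving out the 5 top cells gave none, since only 4 HFD Plac8+ cells had *Cxcl10*. How far its ratio rested on few cells could thus not be checked in this way. After seeing the data, 2 alternatives were added. Without cells with at least 2 UMIs of the peritoneal list, *Cxcl13* was at -0.080 and, in Lyve1+ cells, at -0.47. These ratios rested on at most 13 CD and 8 HFD UMIs, too few to give a direction. *Pf4* was at -0.78, and 0 members were higher in all kept, Lyve1+ and Folr2+Lyve1- cells, beside 1.37%, 1.41% and 1.01% of all genes. At the make-up of the CD library, *Cxcl2* was at 0.57, *Cxcl10* at -0.34, *Cxcl16* at 0.13 and *Pf4* at -0.13. Where a cell group itself is the alternative, fewer cells are counted by construction; other causes were not tested. Depth limits *Cxcl13*, *Cxcl14* and most members in Plac8+ cells, with under 50 UMIs in several groups.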
